A study of Mus musculus with 12 samples.

Results

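The genes described here are 10 components of the unfolded protein response of the endoplasmic reticulum (ER), the chaperones, folding enzymes and degradation factors that a cell makes more of when unfolded protein collects in that compartment. They were chosen by name, as the genes of the count table whose Entrez gene number belongs to Hspa5, Hsp90b1, Dnajb9, Herpud1, Edem1, Sdf2l1, Pdia4, Creld2, Calr or Ern1, and all 10 were found among the 27179 genes of the table. RNA was sequenced from mature B cells of mouse bone marrow in 4 groups of 3 C57BL/6 libraries, and the sort had taken cells with high B220, with IgM and without CD93 on their surface. Old wild-type cells came from mice of 98, 99 and 100 weeks, and young wild-type cells from mice of 9, 10 and 11 weeks. Apoptosis-resistant cells had the genotype Bak-/- BaxD/D and apoptosis-sensitive cells the genotype Bak-/- Baxfl/fl, both at 10 weeks. Both of these groups therefore lacked Bak1, and they differed in whether the floxed Bax gene had been deleted. The sources used here name no Cre driver, so in which cells of the mouse Bax was lost is not given. The design implies a comparison of age, old against young wild type, and one of genotype, apoptosis-resistant against apoptosis-sensitive cells.

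Unfolded protein in the ER is sensed by the membrane proteins IRE1, ATF6 and PERK. Ern1 encodes IRE1 alpha, which splices the mRNA of the transcription factor XBP1. ATF6 is cut at the Golgi apparatus and its free part also acts as a transcription factor, while PERK, encoded by Eif2ak3, slows translation and raises the factor ATF4. XBP1 and ATF6 act through elements in the promoters of chaperone and degradation genes. In the B cell lineage the XBP1 branch is best known from plasma cells, whose ER expands for antibody secretion. BAX and BAK1 are the effectors of mitochondrial apoptosis, and in mice both have also been reported to bind IRE1 alpha.

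The promoter windows below are shown because XBP1 and ATF6 act through promoter elements, of which some of these genes held a match and others none. All are from the RefSeq annotation of GRCm38.p6, read 5′ to 3′ on the strand of the gene, and all 10 genes had a window of 250 bases upstream of a start. The ER stress response element (ERSE) was searched on both strands as CCAAT, any 9 bases and CCACG, and the shorter ERSE-II as ATTGG, any 1 base and CCACG. The ERSE was present in 4 of the 10 genes (Hspa5, Hsp90b1 with 2 matches, Creld2 and Calr), against 0.113% of 32851 windows of all genes. ERSE-II was present in 1 of the 10, Herpud1, against 0.0304% of windows. The capitals mark the ERSE in Hspa5, Hsp90b1, Creld2 and Calr, where a match that opens with CGTGG lies on the opposite strand. They mark ERSE-II in Herpud1 and, in Pdia4, the gene that the genotype comparison turns on, the 2 CCAAT boxes nearest its start, while a box further upstream, 213 bases before the start, is not shown. Each element holds a CCAAT box, which alone was present in 9 of the 10 genes, all but Ern1, and in 33.8% of windows.
Hspa5, chr2:34772005-34772063, plus strand: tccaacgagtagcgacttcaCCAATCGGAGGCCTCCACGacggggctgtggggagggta
Hsp90b1, chr10:86705618-86705676, minus strand: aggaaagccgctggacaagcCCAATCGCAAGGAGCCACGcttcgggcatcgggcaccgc
Hsp90b1, chr10:86705513-86705571, minus strand: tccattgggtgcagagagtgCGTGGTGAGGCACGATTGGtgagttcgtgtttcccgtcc
Creld2, chr15:88819500-88819558, plus strand: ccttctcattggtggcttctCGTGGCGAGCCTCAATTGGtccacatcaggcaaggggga
Calr, chr8:84847055-84847113, minus strand: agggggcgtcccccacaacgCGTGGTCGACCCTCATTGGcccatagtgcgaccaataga
Herpud1, chr8:94386357-94386407, plus strand: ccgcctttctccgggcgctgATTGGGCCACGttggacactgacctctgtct
Pdia4, chr6:47813513-47813632, minus strand: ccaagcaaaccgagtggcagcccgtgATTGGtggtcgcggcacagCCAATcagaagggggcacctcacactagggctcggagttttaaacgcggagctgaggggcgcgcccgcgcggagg

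The Hspa5 element lay 65 to 47 bases before the annotated start and the Herpud1 element 52 to 42 bases before it. The core of the XBP1 element UPRE, TGACGTGG, was in 0.563% of windows and in none of the 10 genes. The composite element of the ATF4 branch (CARE), TGATG, any 1 base and AAT, was in 0.816% of windows and likewise in none of the 10. A missing match says only that these letters were not in the window. The window for Edem1 belonged to another start than the annotated start of the gene.

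All 10 genes were well covered, with 78 reads (Sdf2l1 in a young library) to 16196 reads (Hsp90b1 in an old library), and all passed the filter on low counts. Per length of exon, in RPKM averaged over the 12 libraries, the order was Hsp90b1 (160), Calr (122), Hspa5 (103), Pdia4 (81.1), Herpud1 (68.9), Edem1 (35.7), Creld2 (30.0), Dnajb9 (18.2), Sdf2l1 (15.3) and Ern1 (1.99). Hsp90b1, the ER member of the HSP90 family, and Hspa5, the central ER chaperone BiP, thus stood near the top, and the sensor Ern1 at the bottom. Herpud1 was above Edem1, and Sdf2l1 above Ern1, in all 12 libraries, and Hsp90b1 was above Calr, and Creld2 above Dnajb9, in 11 of 12. The order of Calr, Hspa5, Pdia4 and Herpud1 was less firm, since each was above the next in 9 of 12 libraries. Dnajb9 was above Sdf2l1 in 3 of 12, so that its place in the order rests on its highest libraries. In GRCm38.p6, Hsp90b1 (chr10:86690841-86705444) overlaps a pseudogene on the other strand and, on its own strand, a processed transcript and a microRNA gene. Herpud1 (chr8:94386429-94395371) overlaps an antisense gene, Dnajb9 a microRNA gene on the other strand and Pdia4 one on its own strand. Whether the counting used strand is not given in the sources used here, and strand would not separate overlaps on the same strand. Reads of these overlaps therefore cannot be assigned with certainty.

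Across the whole series, totals ran from 13474162 to 23539764 counts per library. The log2 fold change of Bax in apoptosis-resistant against apoptosis-sensitive cells was -3.42 ± 0.40 (SE; adjusted p = 0.0135, edgeR), and Bak1 stood at 6.98 to 14.4 CPM in resistant, 6.17 to 12.47 CPM in sensitive, 24.7 to 45.4 CPM in old and 31.7 to 47.9 CPM in young cells. All 9 mature B cell markers were detected in every library, with summed levels from 12980 to 20520 CPM. The replicate 1 libraries of both wild-type groups are labelled with a collection in March 2006, while every other library is labelled 2016. Plasma cell markers, which mark the cells with the largest ER, summed to 6386 CPM in old replicate 2, with Igha at 4269 CPM and Jchain at 1050 CPM, against 572 to 1499 CPM in the other 11 libraries. In bulk RNA, fewer cells of a type and less RNA per cell cannot be told apart.

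By the median of the 10 genes, the lowest and the highest libraries were both of old mice. Levels from here on are in CPM after library scaling by the trimmed mean of M values (TMM), and deviations are log2 CPM minus the mean of the gene over the 12 libraries. Old replicate 2 held the highest level of 6 of the 10 genes (Herpud1, Edem1, Sdf2l1, Pdia4, Creld2 and Ern1), and old replicate 1 held the lowest level of 5 (Hspa5, Hsp90b1, Dnajb9, Herpud1 and Calr). The median deviation was 0.44 in old replicate 2 and -0.54 in old replicate 1, while the other 10 libraries lay between -0.145 and 0.24. The summed level of the 10 genes was 2584 CPM in old replicate 2 and 1304 CPM, the lowest sum, in old replicate 1. The highest sum was 2716 CPM in sensitive replicate 2. Old replicate 2 is the library with the high plasma cell markers, and old replicate 1 is one of the 2 libraries labelled 2006. The part of either in these values was not tested.

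**Figure D1:**
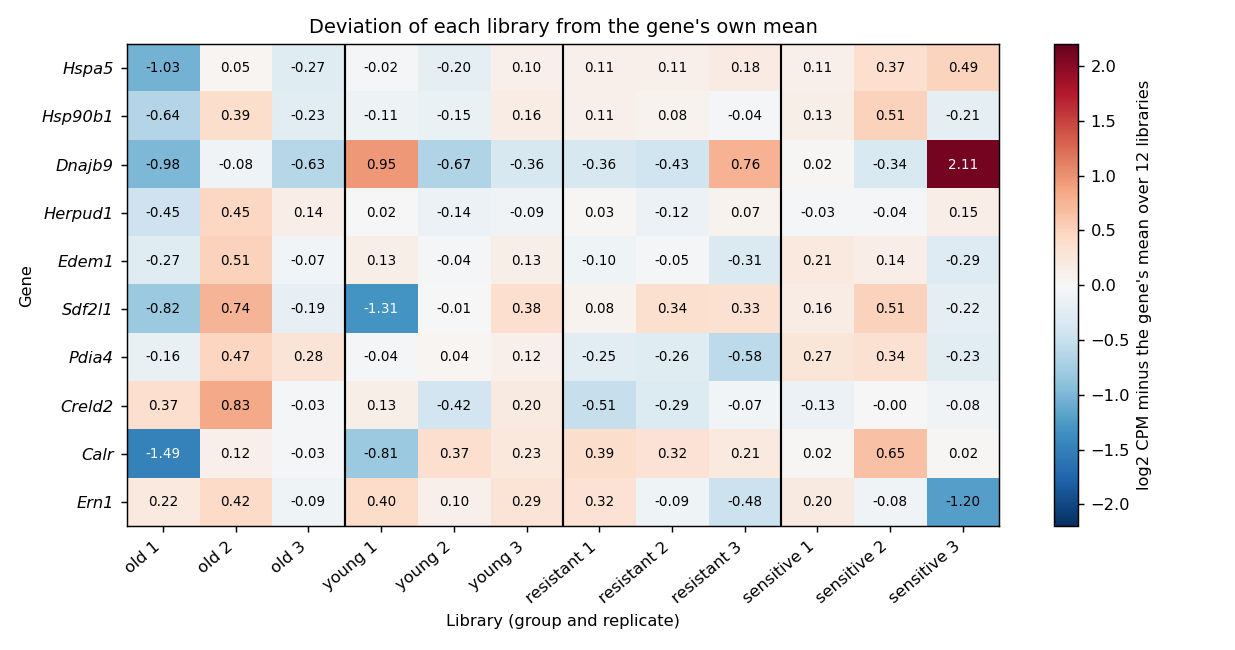
Deviation of each library (columns, grouped by condition) from the mean log2 CPM over the 12 libraries of each gene (rows), in log2 units, with the value in each cell. Old replicates 1 and 3 are each below the mean for 8 genes and old replicate 2 is above it for 9. The highest single deviation is Dnajb9 in sensitive replicate 3.

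Dnajb9 went its own way. It encodes ERdj4, a J-domain cofactor of BiP and a target of XBP1. Its level was 163 CPM in sensitive replicate 3 and 73.1 CPM in young replicate 1, and at most 64.0 CPM elsewhere. Over the 12 libraries its highest level was 8.55 times its lowest. The next widest ranges were 4.4 times for Calr and 4.15 times for Sdf2l1, and the narrowest 1.77 times for Edem1 and 1.87 times for Herpud1. The correlation of each gene with the mean of the 10, over the 12 libraries, ran from 0.90 for Hsp90b1 and 0.82 for Edem1 to 0.18 for Ern1 and 0.11 for Dnajb9. That mean includes the gene itself, the libraries share their groups, and the values are given as a description.

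None of the 10 genes passed the test between old and young wild-type B cells, and the nearest, with the collection date taken into account, was Calr. With edgeR's quasi-likelihood test, 0 of the 10 genes passed an adjusted p of 0.05, against 2.01% of the 13592 genes tested. At an unadjusted p under 0.05 the count was also 0 without the date block, against 11.6% of all genes. With the block it was 1 (Calr), where 14.9% of all genes passed even an adjusted p of 0.05. DESeq2 called 0 as well, against 5.15%. 5 genes had a higher and 5 a lower fitted level in old cells, and the median log2 fold change of the 10 was -0.02, against -0.03 over all genes tested. The libraries of the groups overlapped for all 10 genes, while they did not overlap for 16.1% of all genes.

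**Figure D2:**
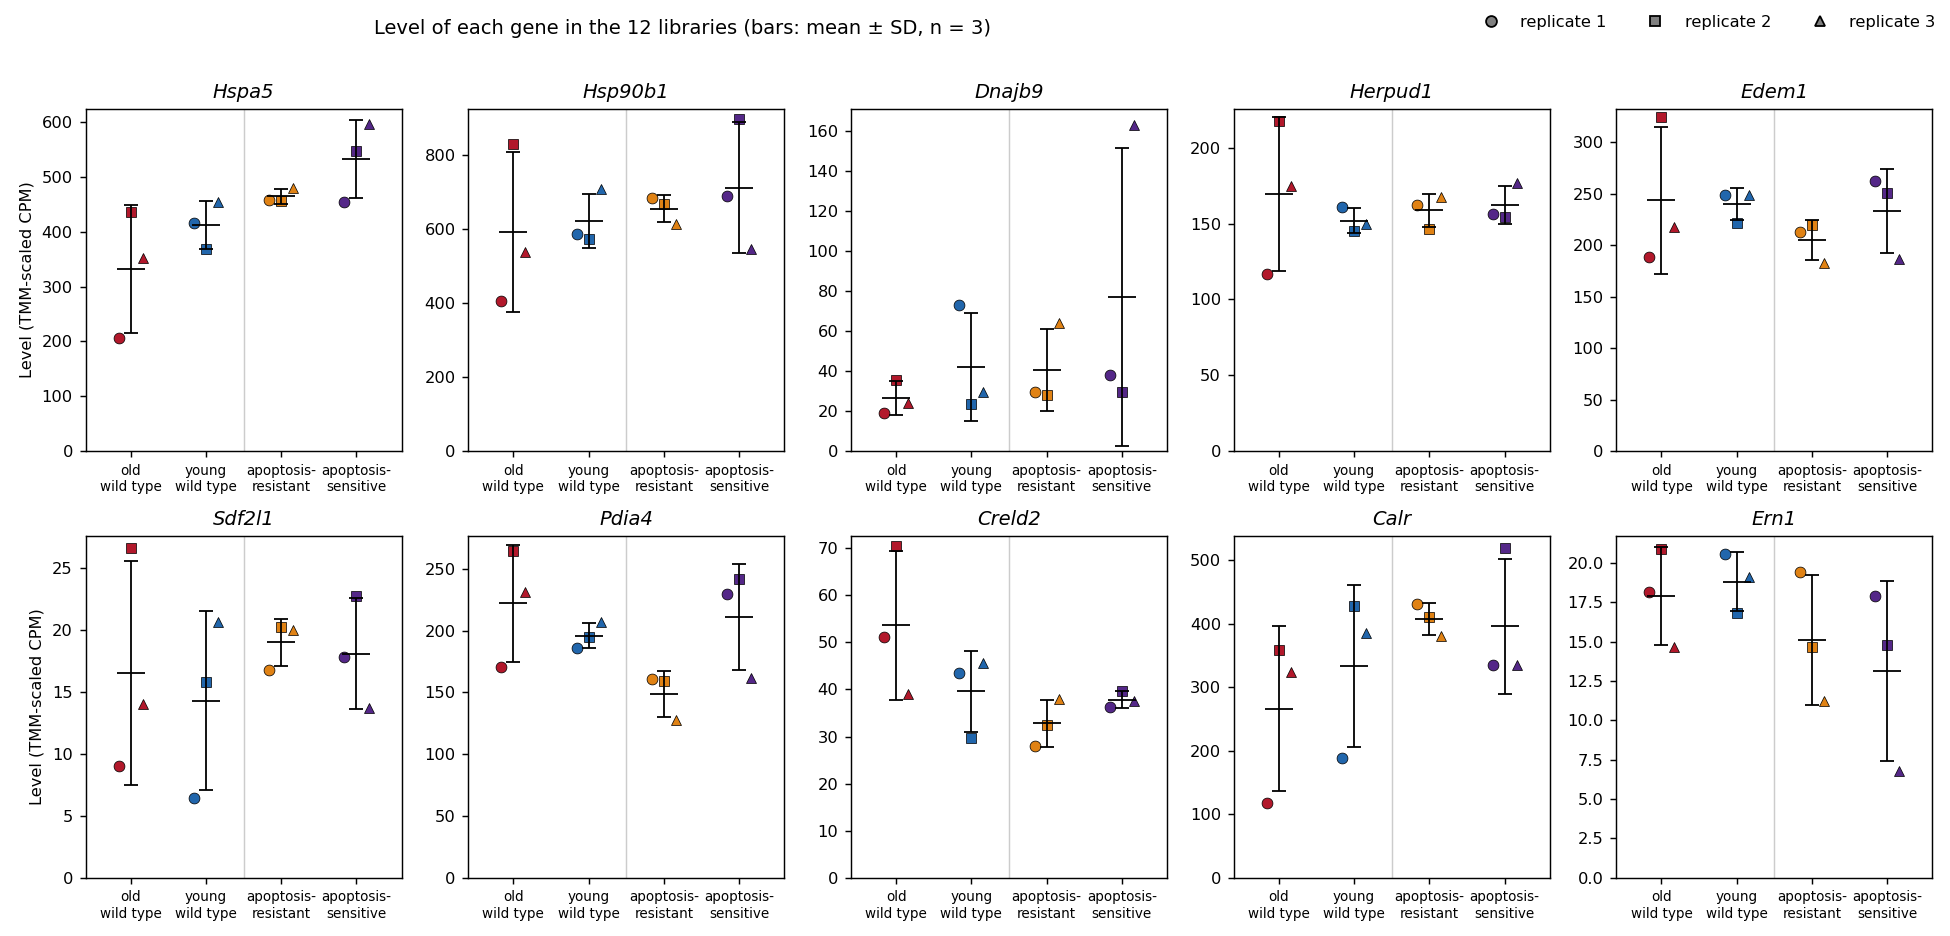
TMM-scaled CPM of each gene in each library, from left to right in old wild-type, young wild-type, apoptosis-resistant and apoptosis-sensitive cells. Symbols are replicates, bars mean ± SD of 3 libraries, and each axis starts at 0. Pdia4 is the gene of the 10 whose resistant libraries all lie below its sensitive ones, and the old libraries spread widely for most genes.

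Among the folding chaperones, Hspa5 was at 207, 437 and 352 CPM in old cells, against 416, 368 and 454 CPM in young cells. Old replicate 1 was far below the rest, and the other old libraries lay among or near the young ones. The log2 fold change was -0.31 ± 0.25 (SE; adjusted p = 0.779, edgeR), and -0.07 without old replicate 1. Hsp90b1 was at 406, 829 and 538 CPM in old cells, against 587, 571 and 706 CPM in young cells, so that the old libraries enclosed the young ones. Its log2 fold change was -0.07 ± 0.27 (SE). Sdf2l1, a stress-induced component of the BiP chaperone complex, had 9.005, 26.6 and 13.98 CPM in old cells, against 6.41, 15.8 and 20.6 CPM in young cells. Both of its lowest values belonged to the libraries labelled 2006. Dnajb9 had 19.1, 35.8 and 24.3 CPM in old cells, against 73.1, 23.8 and 29.5 CPM in young cells. The fitted difference of -0.67 ± 0.64 (SE) rested on young replicate 1, and was 0.01 without it.

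Calr encodes calreticulin, the lectin chaperone that holds glycoproteins during folding and binds ER calcium. Its level was 118, 358 and 324 CPM in old cells, against 188, 428 and 386 CPM in young cells. The groups overlapped, but each old library was below the young library of the same collection date, by 0.68, 0.26 and 0.25 log2 units. The log2 fold change was -0.33 ± 0.40 (SE; adjusted p = 0.907), and with the collection date as a block -0.39 ± 0.14 (adjusted p = 0.075, edgeR). Without the block its sign rested on old replicate 1, since the value was 0.03 without that library and -0.60 without young replicate 1. The blocked adjusted p was 0.0419 once resistant and sensitive replicate 2 were left out of the shared fit, and 0.0622 to 0.361 without each of the other date pairs. Creld2, an ER resident stress-induced protein, had the highest fitted fold change of the 10, with 51.2, 70.5 and 39.0 CPM in old cells, against 43.5, 29.7 and 45.6 CPM in young cells. Old replicates 1 and 2 stood above all young libraries and old replicate 3 within them. The log2 fold change was 0.44 ± 0.23 (SE; adjusted p = 0.56), and 0.21 without old replicate 2 and 0.27 without young replicate 2. Pdia4, a protein disulfide isomerase of the ER, had 171, 265 and 231 CPM in old cells, against 186, 195 and 207 CPM in young cells. One old library was below all young libraries and the other two above them, and the log2 fold change was 0.18 ± 0.21 (SE).

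Of the degradation factors, Herpud1, a membrane scaffold of the ubiquitin ligase complex of ER-associated degradation (ERAD), was at 116.5, 217 and 175 CPM in old cells, against 161, 145 and 150.0 CPM in young cells. Edem1, a lectin that passes misfolded glycoproteins to ERAD, was at 188, 324.5 and 217 CPM in old cells, against 249, 222 and 249 CPM in young cells. For both, old replicate 2 was the highest and old replicate 1 the lowest of the 6 libraries. The log2 fold changes were 0.16 ± 0.20 for Herpud1 and 0.02 ± 0.22 for Edem1 (SE). The sensor Ern1 had 18.2, 20.9 and 14.7 CPM in old cells, against 20.5, 16.8 and 19.1 CPM in young cells, with a log2 fold change of -0.07 ± 0.32 (SE). These intervals are wide. The 95% intervals ran from -0.46 to 0.50 for Edem1 and from -0.66 to 0.52 for Hsp90b1, and for Dnajb9 from -2.06 to 0.72. With 3 libraries a group, changes of any size within them remain compatible with the values. With the date block, edgeR called 14.9% of all genes and 0 of the 10. Hspa5 passed with the block once old and young replicate 2 were left out, at -0.69 ± 0.15 (adjusted p = 0.0214). The share of all genes called in that fit is not given here.

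Between the Bak1-deficient groups, 1 of the 10 genes passed the test, and it did so with the collection date taken into account and not without it. Pdia4 (chr6:47796141-47813512, minus strand) was at 161, 159 and 127.5 CPM in apoptosis-resistant cells, against 230.1, 242 and 162 CPM in apoptosis-sensitive cells. Each resistant library was below each sensitive one, by a small margin at the lowest sensitive library, and the difference within date pairs was -0.52, -0.61 and -0.35 log2 units. The mean was 149 ± 18.6 CPM in resistant cells and 211 ± 43.0 CPM in sensitive cells (SD, n = 3 each). The log2 fold change was -0.50 ± 0.21 (SE; 95% interval -0.96 to -0.05; adjusted p = 0.927, edgeR), so Pdia4 did not pass over all genes. With the collection date as a block it was -0.49 ± 0.11 with an adjusted p of 0.0315, and Pdia4 was then the 1 of the 10 genes called, against 3.41% of all genes. That call was lost when any of the 3 date pairs of these groups was left out, with adjusted p values of 0.187, 0.197 and 0.0922, while the fold change stayed between -0.56 and -0.42. Marker lists differed between these groups too. Mature B cell markers summed to 18110 to 18520 CPM in resistant and 19750 to 20040 CPM in sensitive cells, immature B cell markers to 139 to 171 CPM in resistant and 177 to 259 CPM in sensitive cells, and granulocyte markers to 29.3 to 68.8 CPM in resistant and 77.4 to 735 CPM in sensitive cells. None of these marker genes passed in edgeR without the block, and with it 2 of the 6 immature B cell markers fell (Cd93 and Myb). Rag1 of that list went the other way without overlap and did not pass. It was at 46.35, 26.2 and 28.8 CPM in resistant cells, against 15.3, 13.6 and 3.55 CPM in sensitive cells. The mature B cell list was not uniform either. Its member Ighm was at 6876, 7045 and 7717 CPM in resistant cells, against 9590, 7853 and 8924 CPM in sensitive cells. Fcer2a leaned the other way with overlap, at 1347, 1431 and 1046 CPM in resistant cells, against 1058, 1131 and 820 CPM in sensitive cells. The part of these markers in the values of Pdia4 and of Eif2ak3, described further on, was not tested.

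Without the block, 0 of the 10 genes passed in apoptosis-resistant against apoptosis-sensitive cells with edgeR, against 0.0441% of all genes. At an unadjusted p under 0.05 there was 1, Pdia4, against 4.90% of all genes, and DESeq2 called 0, against 0.942%. The libraries did not overlap for 1 of the 10 genes, Pdia4, and for 14.6% of all genes. 3 genes had a higher and 7 a lower fitted level in resistant cells. The median log2 fold change of the 10 was -0.15, against -0.02 over all genes.

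Hspa5 was at 458, 455.5 and 479.8 CPM in resistant cells, against 455, 546.5 and 596 CPM in sensitive cells. The resistant libraries lay close together at the low end of the sensitive ones, and the log2 fold change was -0.20 ± 0.25 (SE). Hsp90b1 was at 682, 668 and 613 CPM in resistant cells, against 689, 897 and 546 CPM in sensitive cells, again within the wider range of the sensitive group. Sdf2l1 was at 16.8, 20.2 and 19.98 CPM in resistant cells, against 17.8, 22.7 and 13.7 CPM in sensitive cells. Dnajb9 was at 29.45, 28.0 and 64.0 CPM in resistant cells, against 38.2, 29.75 and 163 CPM in sensitive cells. In both groups replicate 3, which shares its collection date, was the highest, and the log2 fold change of -0.93 ± 0.63 (SE; adjusted p = 1.0) became 0.27 without sensitive replicate 3. Direction and size for Dnajb9 thus rested on that library.

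Calr was at 432, 411 and 381 CPM in resistant cells, against 335, 519 and 335 CPM in sensitive cells, with a log2 fold change of 0.04 ± 0.40 (SE). Creld2 was at 28.0, 32.4 and 38.0 CPM in resistant cells, against 36.3, 39.7 and 37.6 CPM in sensitive cells. The highest resistant library overlapped the narrow sensitive range, and the log2 fold change was -0.21 ± 0.23 (SE). Herpud1 had 162, 146 and 167.5 CPM in resistant cells, against 156, 154 and 176.5 CPM in sensitive cells, and a log2 fold change of -0.03 ± 0.20 (SE). Its 95% interval ran from -0.48 to 0.41. Edem1 was at 213, 219.8 and 183 CPM in resistant cells, against 262.5, 251 and 186 CPM in sensitive cells, at -0.19 ± 0.22 (SE). Ern1 was at 19.45, 14.7 and 11.2 CPM in resistant cells, against 17.9, 14.8 and 6.78 CPM in sensitive cells. The 3 collection dates came in the same order in both groups, and the log2 fold change was 0.20 ± 0.33 (SE).

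**Figure D3:**
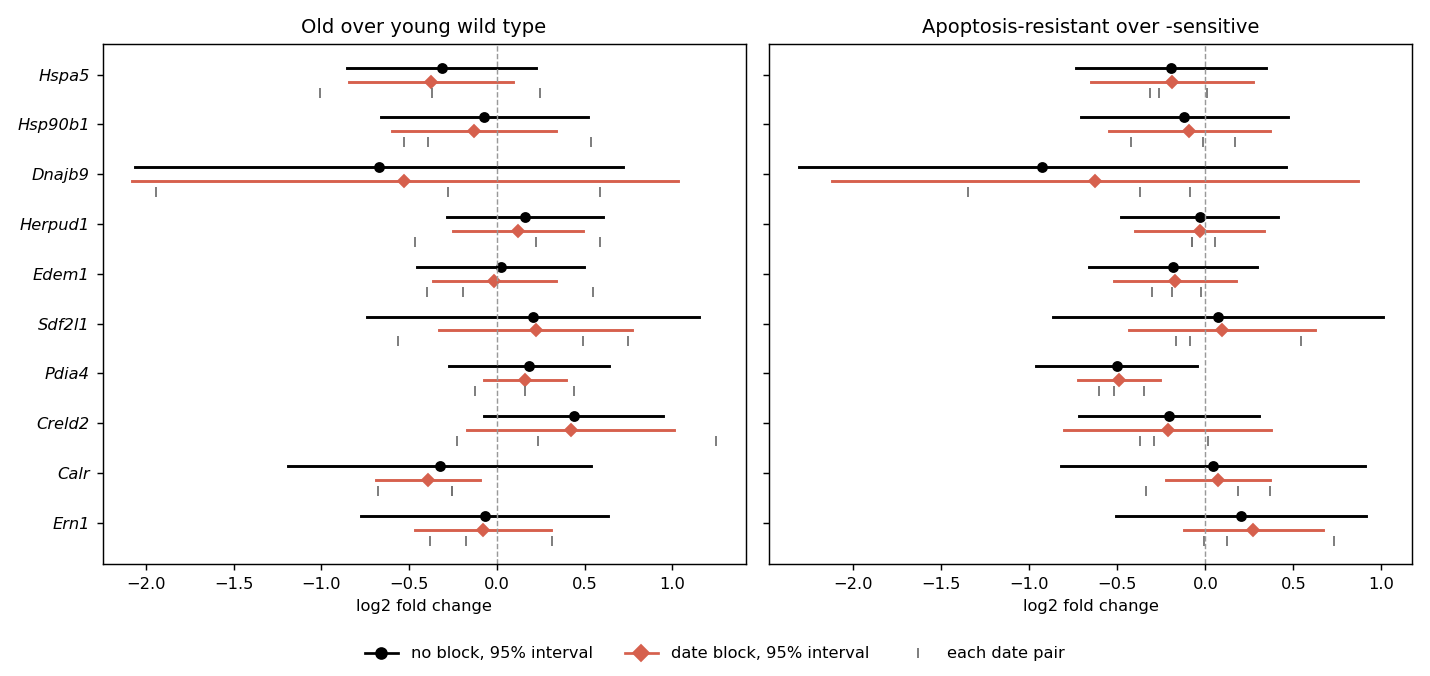
Log2 fold change of the 10 genes for old over young wild type (left) and apoptosis-resistant over apoptosis-sensitive (right), with 95% intervals, without (circles) and with (diamonds) the collection date as a block. Ticks are the 3 date pairs. The interval of Pdia4 in the genotype panel lies below 0 in both fits, and in the age panel the blocked interval of Calr does.

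The age and genotype effects share no library, so their difference can be tested. For Pdia4 the age effect minus the genotype effect was 0.69 ± 0.30 (SE; adjusted p = 0.667, edgeR), and 0.65 ± 0.15 with the date block (adjusted p = 0.0282). The blocked call was lost without old and young replicate 2, without resistant and sensitive replicate 1, and without resistant and sensitive replicate 2, with adjusted p values of 0.0796, 0.109 and 0.0991. Without the block 0 of the 10 genes passed for this difference, against 0.25% of all genes, 1 had an unadjusted p under 0.05 (Pdia4), against 6.88%, and DESeq2 called 0, against 1.88%. With the block 1 passed, against 7.03% of all genes.

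Each Bak1-deficient group was also set against young wild-type cells for context. These comparisons share the young libraries, and they share no collection date, so genotype and date cannot be told apart. Of the 10 genes 0 passed with edgeR in apoptosis-sensitive against young wild-type cells (0.0% of all genes) and 0 in apoptosis-resistant against young wild-type cells (0.162% of all genes). Both counts were also 0 at an unadjusted p under 0.05, against 2.73% of all genes for sensitive and 6.13% for resistant cells, and with DESeq2, against 0.103% and 1.09%. Hspa5 was the 1 gene of the 10 whose sensitive libraries lay above all young ones, by a margin under 1 CPM, where 8.81% of all genes did not overlap. Its resistant libraries lay above all young ones as well, and those of Edem1 and Pdia4 below, which made 3 of 10, where 12.9% of all genes did not overlap. For Pdia4 the log2 fold change was 0.11 ± 0.21 in sensitive and -0.40 ± 0.21 in resistant cells, each against the same young libraries (SE). For Edem1 the values were -0.04 ± 0.22 and -0.23 ± 0.22, in the same order of groups.

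The rest of the pathway was read from 5 lists, none of which holds any of the 10 genes. Of 20 other ER chaperones and folding enzymes, 0 rose and 0 fell with edgeR, both in old against young cells and in resistant against sensitive cells. The median log2 fold changes were 0.03 for age and 0.04 for genotype, beside -0.03 and -0.02 over all genes. Txndc5, a thioredoxin-domain oxidoreductase of the ER, came nearest in the age comparison. Its level was 595, 727 and 483 CPM in old cells, against 383, 363 and 378 CPM in young cells, so that each old library lay above each young one. The log2 fold change was 0.68 ± 0.19 (SE; adjusted p = 0.112, edgeR), with adjusted p values of 0.00572 in DESeq2 and 0.00805 with the date block. The blocked call was lost without old and young replicate 1 (0.0526) and without old and young replicate 2 (0.0522). The same gene did not differ between resistant and sensitive cells beyond its spread, at 0.05 ± 0.19. Old replicate 2, the highest library of Txndc5, was also the highest for plasma cell markers. In old replicate 1, with Txndc5 at 595 CPM, these markers summed to 773 CPM, against 572.5, 869 and 1105 CPM in young cells. Of that sum Cd38 made 282 CPM and Irf4 187 CPM. The members of the list differed. Igha was at 128, 4269 and 482 CPM in old cells, against 6.82, 36.3 and 36.5 CPM in young cells. Sdc1 was at 4.16, 29.7 and 8.65 CPM in old cells, against 4.68, 9.29 and 15.3 CPM in young cells. Of the 10 plasma cell markers 1 rose and 0 fell in edgeR, against 2.01% of all genes. The part of these markers was not tested. Without old replicate 2 the log2 fold change of Txndc5 was 0.54 (adjusted p = 0.378).

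Of 18 other ERAD genes 0 rose and 0 fell in either comparison. Derl3, a channel component of ERAD, had 17.3, 37.8 and 12.0 CPM in old cells, against 11.1, 4.20 and 12.46 CPM in young cells. Old replicate 2 was again the highest library, and the log2 fold change of 1.28 ± 0.54 had an adjusted p of 0.36 (edgeR). Without old replicate 2, the library with the high plasma cell markers, it was 0.69. Of 21 translocon and secretory pathway genes 20 were tested (Kdelr3 was not), and 0 rose and 0 fell in either comparison. Sec24d, a cargo adaptor of the vesicles that leave the ER, had the largest age value of this list, with 10.4, 32.35 and 15.9 CPM in old cells, against 6.08, 10.5 and 16.02 CPM in young cells. This gave a log2 fold change of 0.84 ± 0.43 (SE; adjusted p = 0.528), and of 0.29 without old replicate 2.

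Of 11 sensors and regulators 0 rose and 0 fell in either comparison without the block. Xbp1, the transcription factor that IRE1 alpha activates, was at 77.9, 152 and 104 CPM in old cells, against 83.6, 99.7 and 117 CPM in young cells. It was at 114.5, 114 and 112.8 CPM in resistant cells, against 120.5, 134.5 and 81.8 CPM in sensitive cells. The old libraries enclosed the young ones and the sensitive libraries enclosed the resistant ones, and the log2 fold changes were 0.15 ± 0.25 and 0.02 ± 0.25 (SE). These are gene totals, which do not separate spliced from unspliced Xbp1 mRNA. Atf6 was at 143, 226 and 180 CPM in old cells, against 106, 138 and 155 CPM in young cells, with an overlap of old replicate 1. Its log2 fold change was 0.46 ± 0.24 (SE; adjusted p = 0.53), with an adjusted p of 0.0143 under the date block. That call was lost without old and young replicate 1 (0.0548) and without old and young replicate 2 (0.106).

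Eif2ak3, which encodes the sensor PERK, was at 236, 230.4 and 243 CPM in resistant cells, against 201, 162 and 172 CPM in sensitive cells. The groups did not overlap, and the log2 fold change was 0.41 ± 0.19 (SE; adjusted p = 1.0), with an adjusted p of 0.0311 under the date block. That call was lost without each of the 3 date pairs of these groups, with adjusted p values of 0.0708, 0.179 and 0.239. In old cells Eif2ak3 was at 126, 191.5 and 174 CPM, against 163, 215 and 194 CPM in young cells, each old library lower than the young one of its date, at -0.22 ± 0.19 (SE). The genes of the lists that passed in edgeR with the block and not without it were chosen for mention after their values were seen. In the age comparison they were Txndc5, Atf6, Wfs1 and Lman1, which all rose, and Edem3, which fell. The calls of Wfs1, Lman1 and Edem3 were lost without some date pairs, with adjusted p values of up to 0.174, 0.223 and 0.188. In the genotype comparison they were Eif2ak3, which rose, and Psat1 of the list that follows, which fell.

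The 2 listed genes that passed without a block belonged to the targets of the PERK branch, of which 12 of 14 were tested (Nupr1 and Vldlr were not). In resistant against sensitive cells 2 rose, 0 fell and 10 did not pass, with a median log2 fold change of -0.01. The 12 fold changes ran from -2.78, for a gene that did not pass, to 2.97. Trib3, a pseudokinase induced by ATF4 and CHOP, was at 6.07, 9.27 and 9.99 CPM in resistant cells, against 1.13, 1.06 and 1.03 CPM in sensitive cells. Each resistant library was far above each sensitive one, and the log2 fold change was 2.97 ± 0.33 (SE; adjusted p = 0.0135, edgeR). Atf5, a transcription factor of the same branch, was at 24.0, 26.0 and 36.5 CPM in resistant cells, against 10.1, 10.8 and 8.65 CPM in sensitive cells. Its log2 fold change was 1.55 ± 0.23 (SE; adjusted p = 0.0449). Leaving out a library moved the adjusted p of Trib3 to at most 0.0966 and that of Atf5 to at most 0.228, with 2.84 to 3.17 and 1.35 to 1.67 as the log2 fold changes. Psat1, a serine synthesis enzyme that ATF4 induces, went the other way with the date block, at -0.68 ± 0.14 (adjusted p = 0.0216), a call lost without each of the 3 date pairs of these groups (0.117 to 0.142).

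In old against young cells 0 of the 12 PERK branch genes rose and 0 fell, with a median log2 fold change of 0.245 beside -0.03 over all genes. Trib3 was at 1.13, 1.18 and 1.18 CPM in old cells, against 1.56, 0.857 and 1.25 CPM in young cells, and the groups overlapped. Atf5 was at 10.8, 13.8 and 10.3 CPM in old cells, against 7.64, 7.495 and 9.56 CPM in young cells. Those libraries did not overlap, and the log2 fold change was 0.50 ± 0.22 (SE; adjusted p = 0.417). For Trib3 the age effect minus the genotype effect was -3.03 ± 0.47 (SE; adjusted p = 0.0257), and for Atf5 it was -1.05 ± 0.31 (SE; adjusted p = 0.284). Other kinases than PERK also raise ATF4, and these counts do not separate them.

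**Figure D4:**
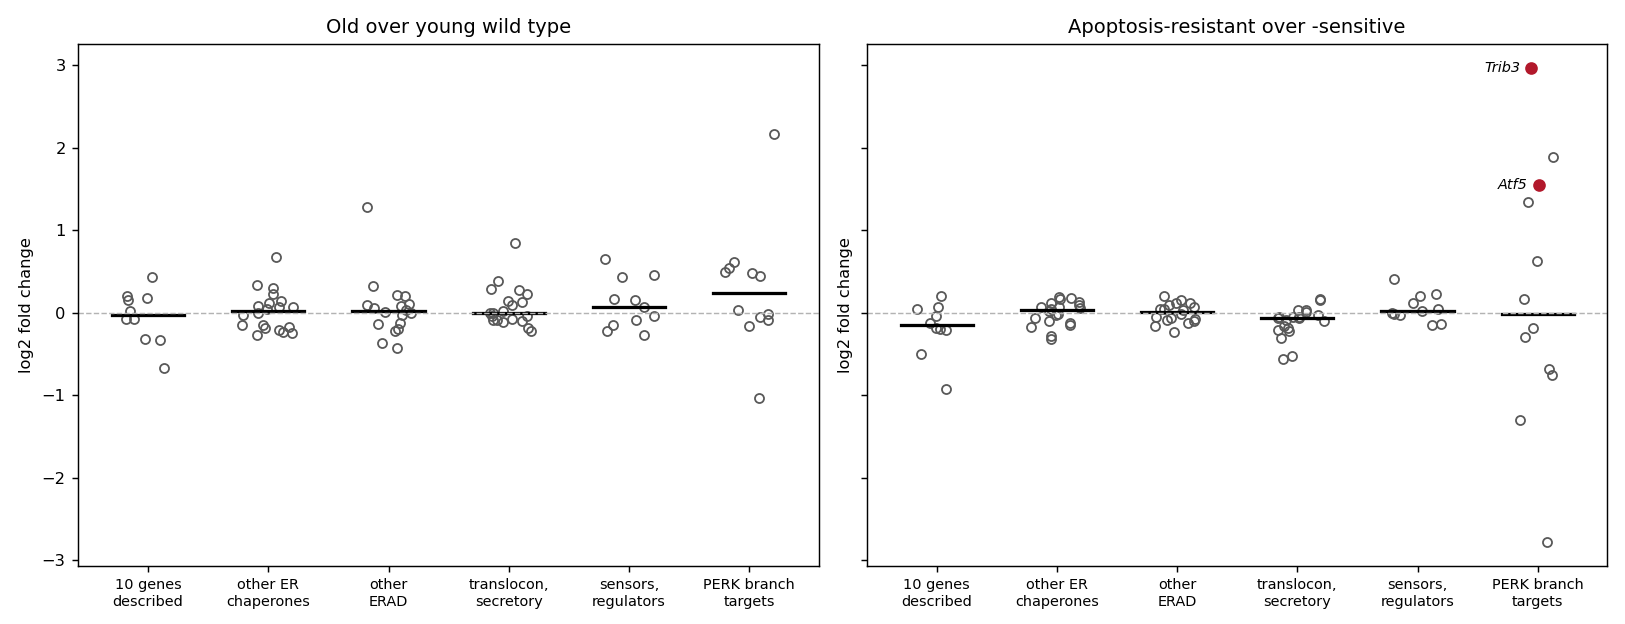
Log2 fold change of each tested gene of the 10 described and of the 5 pathway lists (columns of points), for old over young wild type (left) and apoptosis-resistant over apoptosis-sensitive (right). Filled points passed an adjusted p of 0.05 in edgeR without a block, open points did not, and lines are medians. Trib3 and Atf5 are the 2 filled points.

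Among 8831 other genes with a mean of at least 10 CPM, the 8 whose log2 CPM over the 12 libraries was most like the mean of the 10 genes were Vps41 (Pearson r = 0.86), Ighv1-7 (0.854), Unc119b (0.849), Srprb (0.845), Scd2 (0.843), Xbp1 (0.837), H13 (0.836) and Naf1 (0.831). Srprb encodes a subunit of the receptor that docks ribosomes at the ER, and H13 a protease of the ER membrane. The 12 libraries share 4 groups, and the low old replicate 1 and the high old replicate 2 enter every one of these values.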

How the data were processed

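The authors deposited 1 table with a raw read count for each gene in each of 12 samples. It was made with Subread and featureCounts against mm10, per the submitters' processing notes. Their versions, the annotation and the strand setting are not given in the sources used here. Per the labels' protocols, polyA RNA was made into libraries with a TruSeq RNA v2 kit. The table names genes by Entrez number. RefSeq's GRCm38.p6 annotation gave symbols for 25275 of 27179 genes, and 1904 had none.

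Groups and replicate numbers came from the labels, and the series design calls the 3 members of each group biological replicates. Replicate pairs differed by more than counting noise in every group, so each library counted once. One edgeR 4.0.16 fit over the 4 groups held the 12 libraries (R 4.3.3, TMM, filterByExpr with a minimum count of 10, robust quasi-likelihood, 8 residual degrees of freedom), which left 13592 genes. An adjusted p is from this test, with Benjamini-Hochberg adjustment over all of them and a threshold of 0.05, unless DESeq2 (1.42.0) or a block is named. The code was tested on simulated counts. CPM are TMM-scaled, and RPKM divide them by the summed exon length.

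Same-numbered libraries share a labelled collection date within the wild-type groups and within the Bak1-deficient groups. Their deviations from the group means correlated at 0.745, 0.512 and 0.555 in the wild-type pairs and at 0.284, 0.325 and 0.487 in the Bak1-deficient pairs. The blocked fit takes the date as a term, with 4 residual degrees of freedom.

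The genes described and all lists were chosen with earlier results of these data known. Named beside the 10 genes were Bax, Bak1, Xbp1, Atf6, Eif2ak3, every listed gene past the threshold or else the 2 lowest p of a list (of which those with a point to show are given), and the 8 genes most like the mean. The lists and markers hold 161 genes, of which 160 were in the table. Levels of the mature B cell and plasma cell marker lists are given with the results. Those of immature B cells and granulocytes are given there and in the closing section, and the others in the closing section.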

Additional observations from a re-analysis of the deposited data

Results flagged for a closer look

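The age effect and the genotype effect differed by a test of the difference itself for 2 of the genes named here. For Bax, the gene deleted in the apoptosis-resistant group, the difference (age effect minus genotype effect) was 3.32 ± 0.52 log2 units (SE; adjusted p = 0.0291, edgeR), from -0.10 for age and -3.42 for genotype. This checks the labels. For Trib3, a target of the PERK branch, the difference was -3.03 ± 0.47 (SE; adjusted p = 0.0257), from -0.06 for age and 2.97 for genotype. None of the 10 unfolded protein response genes met this criterion without the date block, and Pdia4 met it with the block, as given above.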

How the results depend on the processing

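The counts of the 10 genes called were 0 in all 5 comparisons in the fit reported and stayed at 0 under DESeq2's size factors, DESeq2's test, no filter on low counts, immunoglobulin genes left out, the compared libraries alone (not run for the difference of effects), and each library left out (0 to 0). With the replicate block, which takes the collection date that pairs the libraries, 1 was called for genotype (Pdia4) and 1 for the difference of effects (Pdia4), and 0 for age. With date pairs left out under the block (chosen after seeing the data), 1 was called for age without old and young replicate 2 (Hspa5) and 1 without resistant and sensitive replicate 2 (Calr). For genotype 1 stayed without each wild-type pair and 0 without each Bak1-deficient pair. For the difference it was 1 without wild-type pairs 1 or 3 or Bak1-deficient pair 3, and 0 otherwise. The share of all genes called in these pair-left-out fits is not given here. In the full blocked fit it was 14.9% for age, 3.41% for genotype and 7.03% for the difference. Of 1100 values of the 10 genes under alternatives, 1090 kept their side of the threshold and 10 passed it. The sign changed in 81 of these values, none of them past the threshold in either fit, and the largest value so affected was that of Dnajb9 for genotype, -0.93 in the fit reported and 0.27 without sensitive replicate 3.

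The count over all genes moved more. For age it was 273, with 700 in DESeq2, 2028 with the block, 1 with the compared libraries alone and 75 to 267 with a library left out. For genotype it was 6, with 11 unfiltered, 128 in DESeq2, 463 with the block, 31 without old and young replicate 1, the March libraries (chosen after seeing the data), and 0 to 13 with a library left out. For sensitive against young cells it was 0, with 3 unfiltered, 14 in DESeq2, 3 without the March libraries and 0 to 4 with a library left out. For resistant against young cells it was 22, with 34 unfiltered, 148 in DESeq2, 12 with the compared libraries alone and 10 to 31 with a library left out. For the difference it was 34, with 255 in DESeq2, 955 with the block, 75 without the March libraries and 2 to 37 with a library left out. The cause was not tested. With 3 libraries a group, changes of any size inside the intervals given remain compatible with the values.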

Other observations

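Markers of other cells differed between libraries as follows, in summed CPM over each list. Granulocyte markers stood at 109, 177 and 684 in old and 96.6, 26.2 and 772 in young cells, and at 68.8, 29.3 and 67.0 in resistant and 735, 77.4 and 138 in sensitive cells. Stromal markers stood at 20.1, 93.8 and 164.2 in old cells, against 2.96, 7.79 and 22.6 in young cells. Immature B cell markers stood at 74.5, 52.7 and 83.8 in old cells, against 322, 159 and 198 in young cells, and at 171, 139 and 143 in resistant cells, against 189, 177 and 259 in sensitive cells. Monocyte and macrophage markers stood at 53.5, 117 and 202 in old cells, against 32.1, 21.9 and 132 in young cells. NK cell markers stood at 5.33, 3.84 and 5.64 in old cells, against 0.739, 0.514 and 1.12 in young cells, and at 0.69, 0.121 and 0.86 in resistant cells, against 1.86, 1.47 and 2.01 in sensitive cells. T cell markers summed to 40.3 to 76.2 in old and 35.9 to 71.97 in young cells. In old against young cells, 2 of 7 T cell and 2 of 3 tested NK cell markers rose in edgeR, and 5 and 3 with the date block. Of 7 monocyte and macrophage markers 1 rose, and 5 with the block. Of 5 tested stromal markers 1 rose, and 5 with the block. Of 10 plasma cell markers 1 rose in both fits. Of 5 plasmacytoid dendritic cell markers 1 rose, and 2 with the block. Of 6 immature B cell markers 2 fell, and 6 with the block. Of 9 mature B cell markers 0 fell, and 2 with the block. No granulocyte or erythroid marker passed. Over all genes 2.01% passed, and 14.9% with the block. Erythroid markers summed to at most 149 in any library, and plasmacytoid dendritic cell markers to 639 to 884.5. Their part in the values of the 10 unfolded protein response genes was not tested.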
